A study of Mus musculus with 6 samples.

Results

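The genes described here are 8 of the 48353 in the deposited files: the caspases Casp1, Casp2, Casp6, Casp8 and Casp9, the apoptosome scaffold Apaf1, the caspase inhibitor Xiap and its antagonist Diablo. They were chosen by symbol from the gene identifier of each transcript, and reads and RPKM were summed over the transcripts of a gene in each library. RPKM scales reads to the length of the transcript and the size of the library. Polyadenylated RNA of hepatocytes was sequenced from mice in which Bim (Bcl2l11) carried lox sites in both alleles (Bim(lox/lox)) and was deleted by Alb-Cre, and from wild-type mice, with 3 libraries in each group. The Cre recombinase of Alb-Cre is driven by the hepatocyte promoter of albumin, so other cell types of the preparation keep the gene. All mice were C57BL/6, and the cells were released by perfusing the liver with collagenase. The labels speak of male mice on chow or a high-fat diet and give neither the diet nor the age for a sample, nor whether the wild-type mice carried lox sites. Whether each sample was a separate animal is not stated. The p-values thus measure spread among these 6 samples only, and that spread may be technical.

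Caspases are proteases that cut their substrates after aspartate and are made as inactive precursors. In the mitochondrial pathway BIM, a BH3-only protein, acts through BAX and BAK to release cytochrome c, which joins APAF1 to form the apoptosome, and the apoptosome activates caspase-9. Caspase-9 in turn activates executioner caspases, and XIAP blocks caspase-9 and some of the executioners. DIABLO, released from mitochondria together with cytochrome c, relieves that block. Caspase-8 is the initiator downstream of death receptors, and in hepatocytes its signal is known to need amplification through BID and mitochondria. Caspase-1 belongs to another branch, the inflammasome, which is best known in macrophages. The activity of all these enzymes is set by cleavage, which RNA levels do not measure.

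What joins the 5 caspases is the catalytic cysteine. The stretches below, read from the GENCODE M21 transcripts (GRCm38), are shown because they mark the family and also show how far its members differ in sequence. Each has 45 bases, and the 15 capitals are the codons of the active-site motif with the cysteine codon in the middle.
Casp8: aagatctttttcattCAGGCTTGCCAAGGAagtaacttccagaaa
Casp9: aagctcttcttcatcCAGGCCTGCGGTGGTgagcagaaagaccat
Casp2: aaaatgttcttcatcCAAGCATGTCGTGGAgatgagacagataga
Casp6: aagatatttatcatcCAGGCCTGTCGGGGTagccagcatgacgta
Casp1: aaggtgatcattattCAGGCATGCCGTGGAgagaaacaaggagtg
The cysteine is codon 362 in Casp8, 325 in Casp9, 320 in Casp2, 146 in Casp6 and 284 in Casp1. Between 10 and 13 of the 15 capital bases are identical in any pair of the 5 genes, with the most in Casp2 and Casp1. Over their whole transcripts, 0% of the 36-base words of Casp1 and of Casp2 occur in a transcript of another gene on either strand. The share is 0.27% for Casp6, 0.85% for Apaf1, 1.13% for Casp9, 1.79% for Xiap, 6.89% for Casp8 and 38.57% for Diablo. For Diablo 20.22% of the words are also in B3gnt4, its neighbour, and for Casp8 6.65% are also in the gene model Gm20257. A short read that falls in the shared words of Diablo can thus be hard to assign to a gene by sequence alone. Whether these words lie at the same place in the genome was not tested. ENSMUST00000197682 and ENSMUST00000198565, counted here with Diablo, are named as another gene, Gm49027, in GENCODE M21. Words shared with them may therefore be part of the 38.57%.

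The libraries held 25335211 to 28245264 estimated reads in knock-out, against 28131355 to 31130519 in wild-type. Bcl2l11, the deleted gene, was listed at 0 in every knock-out library, against 0, 680 and 478 reads in wild-type replicates 1, 2 and 3. Exact zeros also occur at expressed genes, so these values check neither the label of wild-type replicate 1 nor the deletion in knock-out. The difference of Bcl2l11 did not pass the test used below (limma adjusted p = 0.941). Which exons the deletion removes is not stated. Wild-type replicate 1 also stood apart in macrophage markers. Their 14 genes summed to 161 to 224 RPKM in knock-out, against 4477, 224 and 206 RPKM in wild-type replicates 1, 2 and 3. In that library 13 of the 14 were above 0, against 8 or 9 in each other library. The exception, Ctss, was at 0 there and above 0 only in knock-out replicate 2 (319 reads). Adgre1, Clec4f, Vsig4 and C1qc were above 0 in wild-type replicate 1 alone, but exact zeros are also found at expressed genes. Timd4, C1qa, C1qb, Cd5l, Lyz2 and Cd14, at loci of 1 transcript, were above 0 in every library and highest in wild-type replicate 1. Knock-out replicate 1 and wild-type replicate 2 stood apart in another way, with 4613 and 3823 RPKM summed over 13 interferon response genes, against 480 to 676 in the other 4 libraries. Hepatocyte markers summed to 22109 to 35382 RPKM in knock-out, against 18876 to 40851 in wild-type, mostly Alb. Of these markers, 8 of 9 were above 0 in at least 1 library and Tat was at 0 in all 6. Of the markers of other cells, stellate genes were at 0 in every library (0 of 5 above 0). Neutrophil and monocyte genes were at 0 outside wild-type replicate 1 (8.23 RPKM there). Endothelial genes summed to at most 11.5 RPKM and blood genes to at most 4.97 RPKM. Biliary genes summed to 5.87 to 11.2 RPKM, mostly Sox9. Leukocyte genes summed to at most 0.143 RPKM outside wild-type replicate 1, where Ptprc brought them to 106 RPKM. Most of these markers of other cells lie at loci of 2 or more transcripts, where 46% of protein-coding genes were at 0 in all 6 libraries. Their zeros and low sums thus do not show that such cells were absent. In these bulk samples fewer cells of a type and less RNA per cell cannot be told apart.

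Zeros dominate the values of the 8 genes. Of their 48 values (8 genes in 6 libraries) 28 were exactly 0. Casp2, Casp6 and Casp9 were at 0 in every library of both groups, Casp8, Apaf1, Xiap and Diablo were at 0 in some libraries and at 1399 reads or more in the others, and Casp1 alone was above 0 in all 6. Casp1 is also the only member whose locus has a single annotated transcript. The other 7 lie at loci with 4 to 12 transcripts. Among the 8465 protein-coding genes at such loci, 39.85% were at 0 in all 6 libraries, 42.22% were at 0 in some and 17.93% were above 0 in all. Among the 6509 protein-coding genes at loci with 1 transcript, these shares were 53.28%, 10.42% and 36.3%. A mixture of zeros and values above 0, whatever their size, was thus common at loci of many transcripts. For that reason the members with zeros are given library by library, with no mean, SD or fold over all 6 libraries. For Casp8 and Xiap a difference over the libraries above 0 is added, a choice of libraries that rests on the values themselves.

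**Figure D1:**
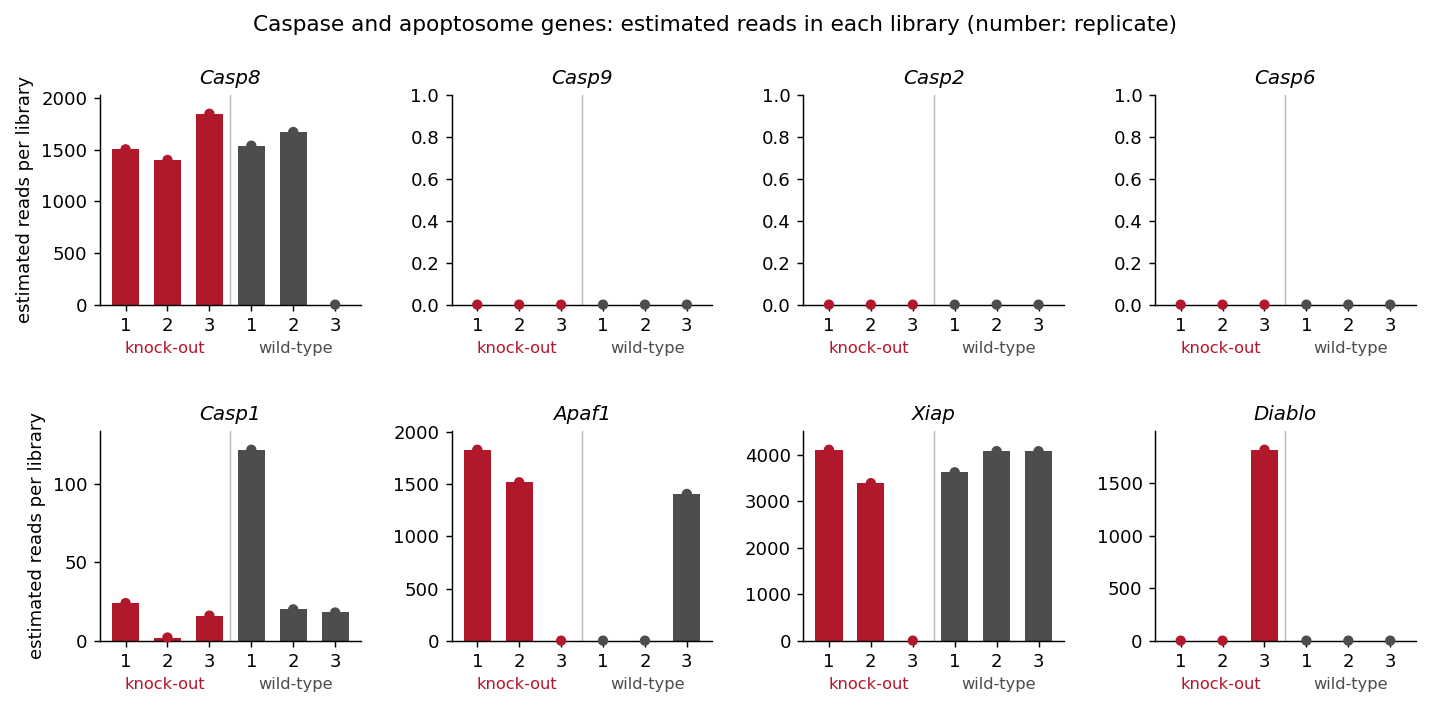
Estimated reads (vertical axis, linear, with its own scale in each panel) of the 8 genes in the 3 knock-out (red) and 3 wild-type (grey) libraries, with a bar and a point per library. Casp9, Casp2 and Casp6 are at 0 throughout, Casp8 and Xiap are at 0 in a single library each, and Casp1 reaches 122 reads in wild-type replicate 1 and 24 or fewer in the others.

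Of the 8 genes, 5 reached an average of 1 RPKM over the libraries and were tested among the 11021 genes past that filter. None of the 5 passed limma at an adjusted p below 0.05 (0 of 5, and 0 at an unadjusted p below 0.05), where 0.789% of all genes tested passed. Each of the 87 genes that passed had reads in all 3 libraries of one group and 0 in all 3 of the other, a pattern shown by 0.935% of the genes tested and by no member (0 of 5). Among the 5538 genes above 0 in all 6 libraries, limma called 0 genes, with 130 at an unadjusted p below 0.05 (2.35%).

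Casp8, the initiator caspase of the death receptors, was read in 5 libraries. It lies on chromosome 1 (58795374 to 58847503, plus strand, GRCm38, ENSMUSG00000026029). It had 1502, 1399 and 1846 reads in knock-out replicates 1 to 3, against 1537, 1669 and 0 reads in wild-type replicates 1 to 3. On the RPKM scale these were 31.2, 29.9 and 37.1 in knock-out, against 39.7, 29.5 and 0 in wild-type. Apart from the zero, the groups overlapped. The zero of wild-type replicate 3 was not a lack of reads at the locus: in that library 1886 reads were assigned to Gm37760, a gene model inside the locus on the same strand (58797783 to 58801623). Gm37760 is annotated without a proven product (biotype TEC), lies in an intron of the longest Casp8 transcript and shares 0 bases with Casp8 exons in GENCODE M21. It took 254, 299 and 0 reads in knock-out, against 0, 316 and 1886 in wild-type. Summed over both genes, the locus held 1756, 1698 and 1846 reads in knock-out, against 1537, 1985 and 1886 in wild-type. All 6 libraries were then within a narrow range, and the zero was gone.

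Scaled to the total behind the RPKM values but not to length (RPM), the Casp8 locus averaged 89.5 ± 5.62 in knock-out, against 85.3 ± 10.3 in wild-type (SD, n = 3 each). The difference, knock-out minus wild-type, was 0.07 on the log2 scale (SE 0.13, 95% interval -0.25 to 0.40; limma over 11093 loci, adjusted p = 0.946), smaller than the spread between libraries. At the level of loci 0.856% passed. The interval leaves room for a change of either sign. Without wild-type replicate 1, the lowest library, the difference was -0.03. A fit of Casp8 alone that dropped the zero, over 3 knock-out and 2 wild-type libraries, gave -0.07 (SE 0.20, 95% interval -0.59 to 0.45; limma adjusted p = 0.998). In RPM that difference was 0.088, on the other side of 0.

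Which transcript of Casp8 carried the reads differed between libraries even where the total did not. ENSMUST00000027189, protein coding with 9 exons, had 75.23%, 73.21% and 100% of the Casp8 reads in knock-out, against 0% and 100% in wild-type replicates 1 and 2. In wild-type replicate 1 all 1537 reads went to ENSMUST00000191201, a protein-coding transcript of 10 exons with 0 reads in the other libraries. The rest of the reads in knock-out replicates 1 and 2 (24.77% and 26.79%) went to ENSMUST00000165549. These transcripts are 2585, 1849 and 1917 bases long, in the order named, so the same number of reads gives a higher RPKM on the second. Wild-type replicate 1 had the highest RPKM of Casp8 and the second lowest RPM among the libraries above 0.

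Xiap, the inhibitor of caspase-9 and of some executioner caspases, was likewise read in 5 libraries. The gene (ENSMUSG00000025860) spans 42059679 to 42109656 on the plus strand of chromosome X. It had 4116, 3396 and 0 reads in knock-out, against 3630, 4086 and 4084 in wild-type. In RPKM the values were 33, 29.8 and 0 in knock-out, against 27.2, 34.5 and 36.8 in wild-type. The zero was in knock-out replicate 3, where no other gene shares the locus, and the remaining libraries of the groups overlapped. With the zero dropped, over 2 knock-out and 3 wild-type libraries, the difference was -0.05 on the log2(RPKM + 1) scale (SE 0.19, 95% interval -0.54 to 0.43; limma adjusted p = 0.998). In RPM, which is not scaled to length, it was 0.0060, on the other side of 0.

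Reads of Xiap were divided between 2 of its 9 transcripts. ENSMUST00000055483, protein coding and 6374 bases long, took 80.18% and 40.36% in knock-out replicates 1 and 2 and 100%, 0% and 0% in wild-type. ENSMUST00000145065, annotated as a processed transcript with no coding region, took the remainder: 19.82% and 59.64% in knock-out, against 0%, 100% and 100% in wild-type. In wild-type replicates 2 and 3 none of the 4086 and 4084 reads were thus placed on a coding transcript. In the 5 libraries above 0 the total of the gene stayed between 3396 and 4116 reads.

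Apaf1, the scaffold that oligomerises with cytochrome c, was read in 3 libraries, 2 of knock-out and 1 of wild-type. It lies on the minus strand of chromosome 10 (90989311 to 91082770, ENSMUSG00000019979). It had 1832, 1520 and 0 reads in knock-out, against 0, 0 and 1408 in wild-type, or 14.1, 11.9 and 0 RPKM in knock-out, against 0, 0 and 10.5 RPKM in wild-type. The 3 libraries above 0 lay close together. With 1 wild-type library above 0, no difference between the groups is given. All reads of knock-out fell on ENSMUST00000159110, a coding transcript of 27 exons. In wild-type replicate 3 they were split, with 49.51% on the same transcript and 50.49% on ENSMUST00000020157, which also has 27 exons.

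Diablo, the mitochondrial antagonist of XIAP, was read in a single library. The gene as listed spans 123509765 to 123525488 on the minus strand of chromosome 5 (ENSMUSG00000029433). That span includes the transcripts named Gm49027 in GENCODE M21, and those named Diablo there reach 123524176. It had 0, 0 and 1818 reads in knock-out, against 0 in each wild-type library. The 1818 reads, 27.9 RPKM, were all placed on ENSMUST00000125652, annotated as a target of nonsense-mediated decay, and none on its coding transcripts. Diablo and Xiap were thus read in opposite knock-out libraries, with knock-out replicate 3 the only library above 0 for Diablo and the only one at 0 for Xiap. B3gnt4, a glycosyltransferase gene that overlaps Diablo in sequence, had 160, 164 and 120 reads in knock-out, against 196, 90.8 and 115 in wild-type.

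**Figure D2:**
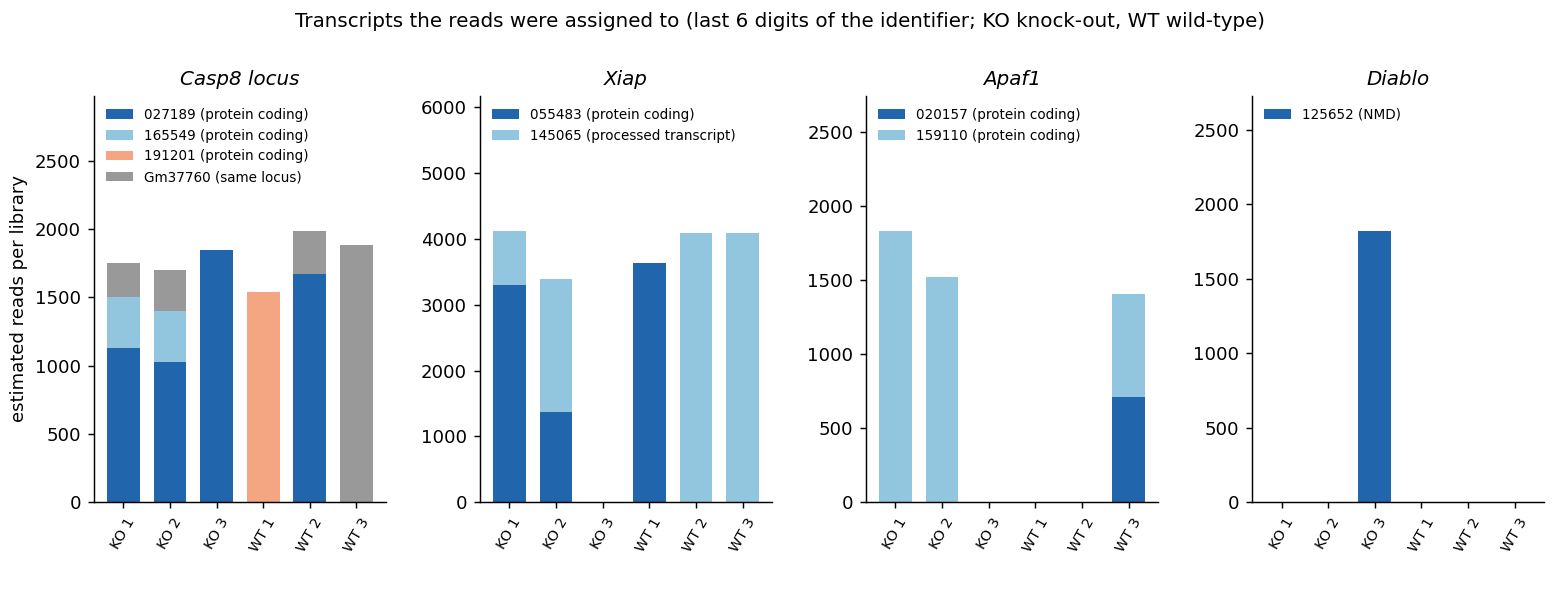
Estimated reads per library (vertical axis, linear) at the Casp8 locus and of Xiap, Apaf1 and Diablo, stacked by the transcript they were assigned to, with KO for knock-out and WT for wild-type libraries. The column heights of the Casp8 locus stay between 1537 and 1985 reads while the transcript changes, and in wild-type replicate 3 the whole column is Gm37760.

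Casp9, the caspase of the apoptosome, Casp2, an initiator that forms its own platform with PIDD1 and CRADD, and Casp6, an executioner that cuts nuclear lamins, had 0 reads on every transcript in every library. Casp9 has 6 transcripts on chromosome 4 (141793612 to 141815976), Casp2 has 10 on chromosome 6 (42264985 to 42282508) and Casp6 has 4 on chromosome 3 (129901425 to 129914103), all on the plus strand. Since exact zeros also stood beside 1399 or more reads of the same gene in another library, these values do not show that the genes were silent. Across the 8 genes the files list 53 transcripts, with those named Gm49027 in GENCODE M21 included. Of the 53, 9 had reads in any library and 1, that of Casp1, in all 6. All 53 are in GENCODE M21, 52 with the same start and end. Of the 27 annotated there as protein coding, 7 had reads.

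Casp1, the inflammasome caspase that matures interleukin-1β, was the 1 member above 0 throughout, at a low level. The gene (ENSMUSG00000025888) lies on the plus strand of chromosome 9 (5298517 to 5307265) and has 1 transcript of 10 exons. It had 24, 2 and 16 reads in knock-out, against 122, 20 and 18 in wild-type. In RPKM this was 0.792, 0.0674 and 0.555 in knock-out, against 3.89, 0.61 and 0.586 in wild-type. Wild-type replicate 1 was high and knock-out replicate 2 low, and the remaining 4 libraries stood between 0.555 and 0.792 RPKM with both groups mixed. The means were 0.472 ± 0.37 RPKM in knock-out, against 1.7 ± 1.9 RPKM in wild-type (SD, n = 3 each). The difference was -0.69 on the log2(RPKM + 1) scale (SE 0.58, 95% interval -2.19 to 0.81; limma adjusted p = 0.941) and so was not larger than the spread between libraries. Casp1 passed the filter only through wild-type replicate 1, and without that library the difference was -0.15. With quantile normalization it was -0.09, and with a pseudocount of 0.1 in place of 1 it was -1.44.

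The 250 bases before the start of Casp1 (chr9:5298267-5298516, plus strand, GRCm38.p6, from RefSeq) are printed because Casp1 is the only member measured in every library. The capitals mark the only CG dinucleotide in them.
Casp1 upstream: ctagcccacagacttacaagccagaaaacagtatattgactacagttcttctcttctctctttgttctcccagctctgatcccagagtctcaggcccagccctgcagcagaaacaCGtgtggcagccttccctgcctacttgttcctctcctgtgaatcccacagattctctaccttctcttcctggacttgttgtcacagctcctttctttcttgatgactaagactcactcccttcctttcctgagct
The core of interferon-regulatory elements (a pair of GAAA with 2 bases between them) and the gamma-activated site (TTC and GAA with 3 bases between them) occur on neither strand of the RefSeq promoter windows (300 bases, reaching 50 past the start) of Casp1 or of the other 7 genes. Of all 32851 such windows 3.44% hold the first and 8.3% the second. The Casp8 window lies at the start of ENSMUST00000165549, which had 24.77% and 26.79% of the Casp8 reads in knock-out replicates 1 and 2 only. The starts of the other Casp8 transcripts with reads, 58795374 and 58795477, were not searched. That such letters are absent from a short window, or present in it, says nothing about the factors. In the 2 libraries high in interferon genes Casp1 had 24 reads (knock-out replicate 1) and 20 reads (wild-type replicate 2), against 122 reads in wild-type replicate 1 and 2 to 18 reads in the other 3. Casp8 had 1502 and 1669 reads there, also within its range elsewhere.

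The library with the most Casp1 was the one with the highest macrophage markers. Nlrc4, a sensor that recruits caspase-1, had 8, 8 and 20 reads in knock-out, against 156, 8 and 22 in wild-type. Naip5, which detects flagellin for NLRC4, had 18, 14 and 26 reads in knock-out, against 122, 20 and 24 in wild-type. Pycard, the adaptor ASC, had 10, 0 and 26 reads in knock-out, against 126, 0 and 28 in wild-type. All 3 were thus highest in wild-type replicate 1, as was Casp1. Nlrp3, another sensor, had 4322 reads in wild-type replicate 1 and 0 in the other libraries of both groups. Il1b, the main substrate of caspase-1, had 0, 712 and 0 reads in knock-out, against 11150, 0 and 690 in wild-type. Il18, its other cytokine substrate, was at 0 in all 6. Gsdmd, the pore-forming substrate of caspase-1, did not follow: it had 1394, 1072 and 898 reads in knock-out, against 474, 1492 and 934 in wild-type, with wild-type replicate 1 the lowest. The part of macrophage markers in the Casp1 values was not tested.

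**Figure D3:**
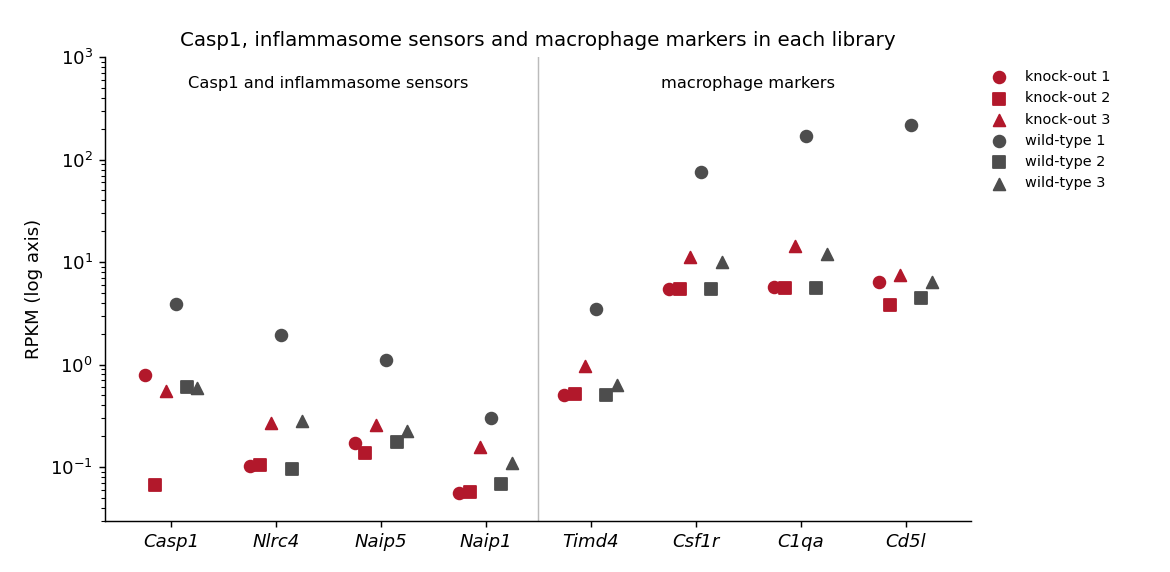
RPKM on a log axis of Casp1, 3 inflammasome sensors (Nlrc4, Naip5 and Naip1) and 4 macrophage markers, with a point per library, knock-out red and wild-type grey, and the symbol giving the replicate. Wild-type replicate 1 is the highest point of each gene shown, at 3.89 RPKM for Casp1 and 219.9 RPKM for Cd5l.

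By Pearson's correlation of log2(RPKM + 1) over the 6 libraries, the genes most like Casp1 among 5537 genes above 0 in all libraries were Cpd, a carboxypeptidase (r = 0.997), Sav1, a scaffold of the Hippo pathway (r = 0.997), and Smad7, an inhibitor of TGF-β signalling (r = 0.996). Cpd had 45.5, 34.3 and 44.9 RPKM in knock-out, against 87.3, 44 and 43.9 RPKM in wild-type. Sav1 and Smad7 too were highest in wild-type replicate 1 and lowest in knock-out replicate 2 by RPKM. The reads of Smad7 differed less (1238, 598 and 986 in knock-out, against 1298, 1250 and 986 in wild-type), so its height in wild-type replicate 1 on the RPKM scale moved with transcript length. Without wild-type replicate 1, the library farthest from the rest in Casp1, r was 0.977 for Cpd, 0.979 for Sav1 and 0.98 for Smad7. As these genes were chosen on the same libraries, those values are no independent support. In the libraries left, Casp1 stood apart in knock-out replicate 2, with 2 reads against 16 to 24 in the others. In all 280 genes (5.06%) had r above 0.9, and the values describe these libraries only.

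The remaining genes of the pathway were taken from a list of 42. Of these, 17 were above 0 in all 6 libraries, 11 were at 0 in some and 14 were at 0 in all. None of the 24 that passed the filter was called by limma (0 of 24, and 0 at an unadjusted p below 0.05), against the 0.789% of all genes given above. The 14 that were above 0 in all 6 libraries and past the filter had 7 positive and 7 negative differences with a median of -0.0088 on the log2(RPKM + 1) scale, beside a median of 0.0013 over the 5538 genes above 0. In none of the 14 were the groups free of overlap (0), where 5.94% of the 5538 genes had groups without overlap.

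Among the other caspases listed, Casp4 and Casp12, which neighbour Casp1 on chromosome 9, were at 0 in all 6 libraries. Casp14, a caspase of the epidermis, was also at 0 in all.

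Mitochondrial factors that are released with DIABLO were above 0 in every library (4 of 4). Cycs, cytochrome c, had 7839, 5517 and 6958 reads in knock-out, against 7837, 8084 and 7965 in wild-type. It averaged 109.7 ± 18.2 RPKM in knock-out, against 137.7 ± 28.8 RPKM in wild-type (SD, n = 3 each), a difference of -0.32 (SE 0.21; limma adjusted p = 0.941). The groups overlapped, and the difference was -0.16 without wild-type replicate 1, -0.18 without knock-out replicate 2 and -0.15 in RPM. Htra2, a protease that also binds XIAP, averaged 86.3 ± 22.7 RPKM in knock-out, against 89 ± 19.8 RPKM in wild-type. Aifm1, a flavoprotein of the intermembrane space, averaged 49.5 ± 3.25 RPKM in knock-out, against 49.5 ± 4.78 RPKM in wild-type. Endog, a mitochondrial nuclease, averaged 8.42 ± 1.18 RPKM in knock-out, against 7.76 ± 0.745 RPKM in wild-type (SD, n = 3 each for these 3 genes). Of the 4 factors, Aifm1 had the narrowest 95% interval of its difference, from -0.32 to 0.33 on the log2(RPKM + 1) scale.

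The relatives of Xiap were mostly listed with zeros. Birc2 had 1351, 1458 and 0 reads in knock-out, against 0, 1227 and 1149 in wild-type, and Birc3 had 2938, 0 and 2374 in knock-out, against 3150, 2354 and 2126 in wild-type. Both are ubiquitin ligases of TNF receptor signalling, and neither passed the test. Birc6, a very large ligase, had 0, 0 and 6382 reads in knock-out, against 6594, 0 and 6840 in wild-type. Birc5, survivin of dividing cells, was at 0 in all. Xaf1, an interferon-induced binder of XIAP, had 4523, 1050 and 0 reads in knock-out, against 0, 4324 and 0 in wild-type, with the 2 highest values in the libraries high in interferon genes. The part of interferon genes in these values was not tested.

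Of the death receptor arm upstream of caspase-8, 4 of 8 genes were above 0 in all libraries. Fadd, the adaptor that brings caspase-8 to the receptor, had 328, 336 and 330 reads in knock-out, against 422, 386 and 340 in wild-type (4.3 ± 0.127 RPKM in knock-out, against 4.64 ± 0.471 RPKM in wild-type, SD, n = 3 each). Its difference was -0.09 (SE 0.18; limma adjusted p = 0.991). With quantile normalization it was 0.13, so its direction depends on the scaling. That setting also moved the median difference over all genes tested, from -0.013 to 0.082. Tnfrsf10b, the TRAIL receptor, averaged 7.75 ± 1.15 RPKM in knock-out, against 7.13 ± 1.33 RPKM in wild-type (SD, n = 3 each). Fas was at 0 in all 6 libraries, and Tnfrsf1a had 3400 to 3682 reads in knock-out, against 3606, 0 and 3702 in wild-type.

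Cflar and Bid, which stand on either side of caspase-8, had the largest differences among those 4 genes, and neither passed the test. Cflar, the catalytically inactive relative that restrains caspase-8, had 11193, 5694 and 6512 reads in knock-out, against 11605, 9584 and 6529 in wild-type. It averaged 78 ± 49.2 RPKM in knock-out, against 125.2 ± 32.4 RPKM in wild-type (SD, n = 3 each), a difference of -0.82 (SE 0.48; limma adjusted p = 0.941). In RPM the difference of Cflar was -0.17, a scale that leaves out the length of the transcripts the reads were placed on. In RPKM it was -1.29 without knock-out replicate 1 and -0.52 without knock-out replicate 2, and it passed in neither case. Bid, the substrate through which caspase-8 reaches mitochondria, had 4322, 4426 and 3348 reads in knock-out, against 2952, 3530 and 3576 in wild-type. It averaged 84.4 ± 11 RPKM in knock-out, against 65.8 ± 7.06 RPKM in wild-type (SD, n = 3 each), a difference of 0.35 (SE 0.15; limma adjusted p = 0.941). The groups of Bid overlapped by 1 library of each.

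Cradd, the adaptor of caspase-2, had the highest difference of the 14 genes, and it did not pass the test. It had 152, 222 and 184 reads in knock-out, against 110, 138 and 166 in wild-type (5.71 ± 1.12 RPKM in knock-out, against 3.97 ± 0.868 RPKM in wild-type, SD, n = 3 each). The difference was 0.44 (SE 0.24; limma adjusted p = 0.941). Its partner Pidd1 was at 0 in all libraries. Gsdmd averaged 31.8 ± 6.37 RPKM in knock-out, against 25.6 ± 12.8 RPKM in wild-type (SD, n = 3 each), a difference of 0.42 (SE 0.44; limma adjusted p = 0.943), which was 0.0035 without wild-type replicate 1, 0.27 without knock-out replicate 1 and 0.76 without wild-type replicate 2. Mlkl, the executor of necroptosis, had 4072, 1944 and 2098 reads in knock-out, against 0, 4906 and 2348 in wild-type, while its kinase Ripk3 was at 0 in all.

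Substrates of the caspases were read in all libraries for 4 of 5 genes. Dffa, the inhibitor of the caspase-activated DNase, averaged 16.2 ± 2.64 RPKM in knock-out, against 12.5 ± 2.06 RPKM in wild-type (SD, n = 3 each), a difference of 0.35 (SE 0.21; limma adjusted p = 0.941). It was 0.16 in RPM and 0.22 without wild-type replicate 1. Dffb, the nuclease itself, was at 0 in all 6. Parp1 averaged 30.1 ± 7.95 RPKM in knock-out, against 30.7 ± 1 RPKM in wild-type, Rock1 27.6 ± 1.07 in knock-out, against 28 ± 0.557 in wild-type, and Acin1 47.1 ± 3.57 in knock-out, against 51 ± 5.18 in wild-type (SD, n = 3 each). Of all the genes described, Rock1 was measured most tightly, with a 95% interval of its difference from -0.30 to 0.26.

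**Figure D4:**
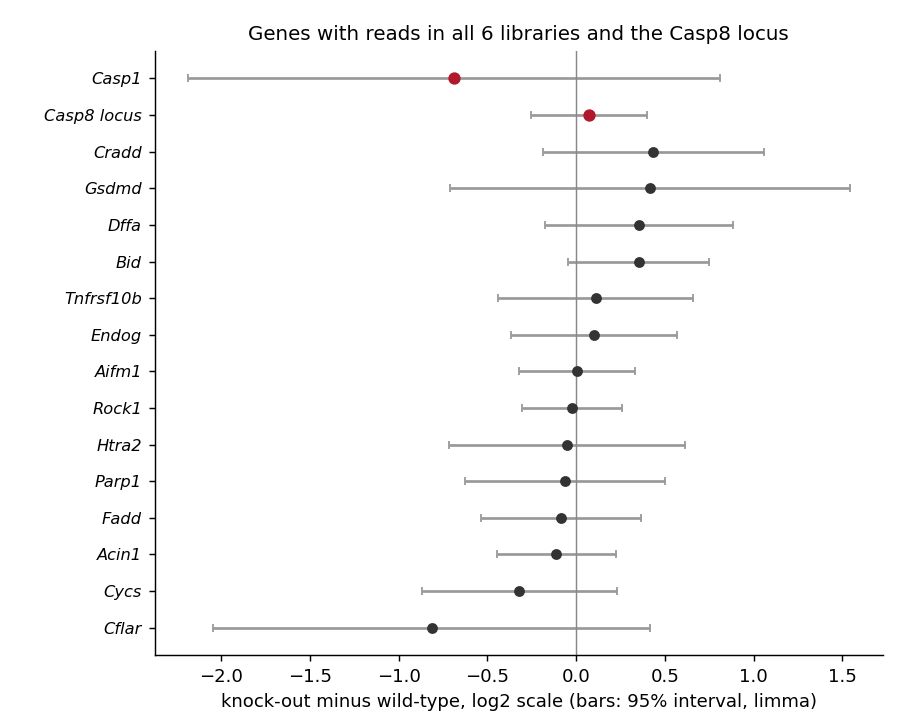
Difference between knock-out and wild-type (horizontal axis, log2 scale, positive where higher in knock-out) with the 95% interval from limma, for Casp1 and the Casp8 locus (red) and 14 pathway genes (black), by size. Every interval shown includes 0, and those of Casp1 (-2.19 to 0.81), Cflar and Gsdmd are the widest.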

How the data were processed

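The deposited files, 1 per library, list 118492 transcripts with estimated reads, length and RPKM as text attributes, per the file contents. The submitters' processing notes name TopHat2 (version 2) and the GRCm38 (mm10) build. How reads were divided among transcripts, and whether strand was used, was not given in the sources used here. The authors' RPKM rest on totals of 19245556 to 21899881 reads. Of the 17 member values above 0 that were whole (within 0.001), 16 were even. Symbols matched 47993 of 48353 gene identifiers. Genes that averaged 1 RPKM or more were tested on log2(RPKM + 1) with limma 3.58.1 in R 4.3.3 (eBayes with trend, two-sided, Benjamini-Hochberg, called below 0.05), all 6 libraries, no covariate. This scale understates changes of low genes. The limma step was tested on simulated data. Coordinates are those of the files. Transcript types and sequences came from GENCODE M21, and promoters from RefSeq.

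The members and lists were chosen with earlier results of these data known. Some genes of the pathway are not reported here. All 8 members, the listed pathway genes nearest to them in role and the 3 genes most like Casp1 were named. Gm37760, Gm49027 and B3gnt4 were named after their values were seen. The sums over the Casp8 locus, the fits over libraries above 0 and the fit without knock-out replicate 1 and wild-type replicate 2 were added after seeing the data. Python 3.11.15 with pandas 2.3.3 and numpy 2.4.6 was used.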

Additional observations from a re-analysis of the deposited data

How the results depend on the processing

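No member and no pathway gene was called under any alternative run (0 each). Of 277 differences recomputed, 256 kept their sign and 0 passed the threshold (lowest adjusted p = 0.408, Cflar without knock-out replicate 1). The number of genes called by limma, 87, was 0 with genes above 0 in all 6 libraries (130 at an unadjusted p below 0.05), 0 with zeros at loci of 2 or more transcripts taken as missing (298), 171 to 200 with 1 library left out, and 298 without the 2 libraries high in interferon genes. Why it moved so was not tested. With the replicate number as a block it was 0 (198 at an unadjusted p below 0.05). Same-numbered libraries did not deviate together from their group means (r = -0.158 to -0.005, with 0 of 3 knock-out libraries closest to their own number). With 3 libraries in each group and single libraries that stand apart, this check cannot exclude that equal numbers pair the samples.

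Signs turned with quantile normalization for Fadd (0.13), Parp1 (0.014) and Rock1 (0.070). The median difference over all genes tested was 0.082 in that setting, against -0.013 in the main fit. In RPM they turned for Htra2 (0.016), Parp1 (0.027), Casp8 over libraries above 0 (0.088) and Xiap (0.0060). Parp1 also turned without the 2 libraries high in interferon genes (0.11). Leaving out 1 library gave differences of -0.25 to 0.12 for Htra2, -0.055 to 0.078 for Aifm1, -0.011 to 0.23 for Tnfrsf10b, -0.25 to 0.12 for Parp1, -0.044 to 0.0081 for Rock1, -0.030 to 0.13 for the Casp8 locus, -0.28 to 0.14 for Casp8 over libraries above 0 and -0.18 to 0.033 for Xiap. For Casp1 it gave -0.96 to -0.15. The difference of Casp1 could not be given with a filter of at least 5 RPKM. Without the 2 libraries high in interferon genes the difference of Cflar was -1.34 and that of Cycs -0.52, neither past the threshold. The zeros, and the few reads of Casp1, limit what these files show of the caspases.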
